A study of Mus musculus with 6 samples.

Results

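Carbonic anhydrases are enzymes that convert carbon dioxide and water to bicarbonate and a proton, and mouse has a family of 16 such genes, *Car1* to *Car15* with *Car5a* and *Car5b*. *Car3* and 6 relatives (*Car1*, *Car2*, *Car13*, *Car4*, *Car8* and *Car14*) are described here, which are 7 of the 52636 genes counted in tibialis anterior (TA) muscle of iMS*Bmal1*-/- and iMS*Bmal1*+/+ mice. *Car3* was selected on its measured counts, as a gene with a large decrease between these same libraries, and the others were selected as its neighbors on chromosome 3 or as family members. The difference in *Car3* is therefore given as a description without a test, and the same holds for the other 6 genes.

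The family works at several places in and around the cell. *Car1*, *Car2*, *Car3* and *Car13* encode cytosolic enzymes, *Car5b* a mitochondrial enzyme, and *Car4*, *Car9* and *Car14* enzymes bound to the cell surface, while the product of *Car8* lacks catalytic activity. The enzyme encoded by *Car3* is known as an abundant cytosolic protein of slow skeletal muscle fibers and adipocytes with low activity toward carbon dioxide, and it has been studied for reactions of its cysteines with oxidants.

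The 6 libraries came from 3 iMS*Bmal1*-/- and 3 iMS*Bmal1*+/+ male mice of strain C57BL/6, all with floxed *Bmal1* and a Cre recombinase (HSA-MCM) that the human skeletal actin promoter drives and tamoxifen activates. At 12 to 16 weeks of age, the iMS*Bmal1*-/- mice were injected with 2 mg of tamoxifen on each of 5 days, whereas vehicle was given to the iMS*Bmal1*+/+ mice. Muscles were collected 5 weeks after treatment, and genotype and tamoxifen cannot be told apart. The promoter is active in muscle fibers, so that other cells of the TA were not targeted. The totals on genes were 2091912, 1997203 and 2716079 counts in iMS*Bmal1*+/+ against 2403438, 1616290 and 2068657 in iMS*Bmal1*-/- libraries. A count of 0 allows up to 3 counts at this depth, or 1.14 to 1.80 CPM (counts scaled to the TMM-normalized library size), a limit that covers counting error only. *Bmal1* itself, annotated as *Arntl*, had 5, 4 and 11 counts in iMS*Bmal1*+/+ against 13, 5 and 5 in iMS*Bmal1*-/- libraries. These counts overlapped and were too few to check the genotypes.

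*Car3* lies on the plus strand of chromosome 3, from 14863512 to 14872523 on GRCm38 (mm10), with 2865 bp of exon sequence. It had 33, 27 and 57 counts in iMS*Bmal1*+/+ against 10, 6 and 7 in iMS*Bmal1*-/- libraries. In CPM this was 16.4, 13.9 and 21.6 in iMS*Bmal1*+/+ against 4.35, 3.59 and 3.34 in iMS*Bmal1*-/- muscle. Every iMS*Bmal1*-/- library was below every iMS*Bmal1*+/+ library, and the highest value belonged to iMS*Bmal1*+/+ replicate 3. The means were 17.3 ± 3.93 CPM (SD, n = 3) in iMS*Bmal1*+/+ and 3.76 ± 0.527 CPM (SD, n = 3) in iMS*Bmal1*-/- muscle, and the log2 fold change was -2.19 (standard error, SE, 0.34). Counted from the lowest log2 fold change this was rank 7 of the 6831 genes tested, which restates the value that *Car3* was selected on. With single libraries left out it ranged from -2.33, when iMS*Bmal1*-/- replicate 1 was missing, to -1.99, when iMS*Bmal1*+/+ replicate 3 was missing. By its mean count level in iMS*Bmal1*+/+ muscle *Car3* stood at rank 3186. In bulk muscle, fewer cells of a type and less RNA per cell cannot be told apart.

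Of the 7 genes, *Car3* and *Car14* passed the filter on low counts, and the other 5 had at most 3 counts in all 6 libraries together. *Car3* was the one of the 2 whose libraries did not overlap in CPM between the genotypes, a pattern that 17.3% of all tested genes showed and from which nothing is read here, since this contrast chose the gene. *Car1*, the cytosolic enzyme typical of red blood cells, had 1 count in iMS*Bmal1*+/+ replicate 3 and 1 in iMS*Bmal1*-/- replicate 1. *Car2*, a fast cytosolic enzyme, had a single count, in iMS*Bmal1*-/- replicate 1. *Car4*, whose product is anchored to the membrane of capillary endothelium and muscle, had 1 count each in iMS*Bmal1*-/- replicates 1 and 3. *Car13* and *Car8* had 0 counts in all libraries. With so few counts, a difference in any of these 5 genes was not detectable, and what keeps the counts low was not tested.

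*Car14* encodes a membrane enzyme with its catalytic part outside the cell and lies on the minus strand of chromosome 3, from 95897768 to 95904691. It had 99, 80 and 127 counts in iMS*Bmal1*+/+ against 127, 82 and 89 in iMS*Bmal1*-/- libraries. The groups overlapped, and the libraries with 127 counts were found in both genotypes. The log2 fold change was 0.08 (SE 0.17), with -0.03 without iMS*Bmal1*-/- replicate 1 and 0.18 at most when another library was left out. Counts of *Car3* per count of *Car14* were 0.333, 0.338 and 0.449 in iMS*Bmal1*+/+ against 0.0787, 0.0732 and 0.0787 in iMS*Bmal1*-/- libraries. The ratio holds the decrease for which *Car3* was selected and adds no separate evidence of it.

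Outside the 7 genes, *Car9*, a membrane enzyme known for its induction by hypoxia, had the most counts of the family over the 6 libraries. It lies on the plus strand of chromosome 4, from 43506966 to 43513729, and had 135, 119 and 85 counts in iMS*Bmal1*+/+ against 98, 88 and 87 in iMS*Bmal1*-/- libraries. The iMS*Bmal1*+/+ libraries held both the highest and the lowest counts, so that the groups overlapped. The log2 fold change was -0.22 (SE 0.22, edgeR adjusted p = 0.780), between -0.51 and -0.03 with single libraries left out. Among the 9 family genes outside the 7, *Car9* was the 1 gene tested, 0 passed the threshold, 0 had an unadjusted p under 0.05, and DESeq2 also called 0. The share of genes past the threshold was 1.83% over all 6831 tested genes.

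*Car11*, which encodes a carbonic anhydrase-related protein without catalytic activity, had 16, 13 and 7 counts in iMS*Bmal1*+/+ against 9, 5 and 2 in iMS*Bmal1*-/- libraries. The groups overlapped through iMS*Bmal1*+/+ replicate 3, and the gene was below the filter on low counts. Fitted without that filter, its log2 fold change was -1.11 (SE 0.53, edgeR adjusted p = 0.720). *Car5b* had 4, 4 and 6 counts against 8, 7 and 3 in iMS*Bmal1*-/- libraries, which overlapped as well. *Car5a*, *Car6* and *Car15* had 0 counts in all libraries, and *Car7*, *Car10* and *Car12* had 1 count each over the 6 libraries, in each case in an iMS*Bmal1*-/- library. Thus 11 of the 16 family genes had at most 3 counts in all libraries together, and 5 of these had 0.

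**Figure D1:**
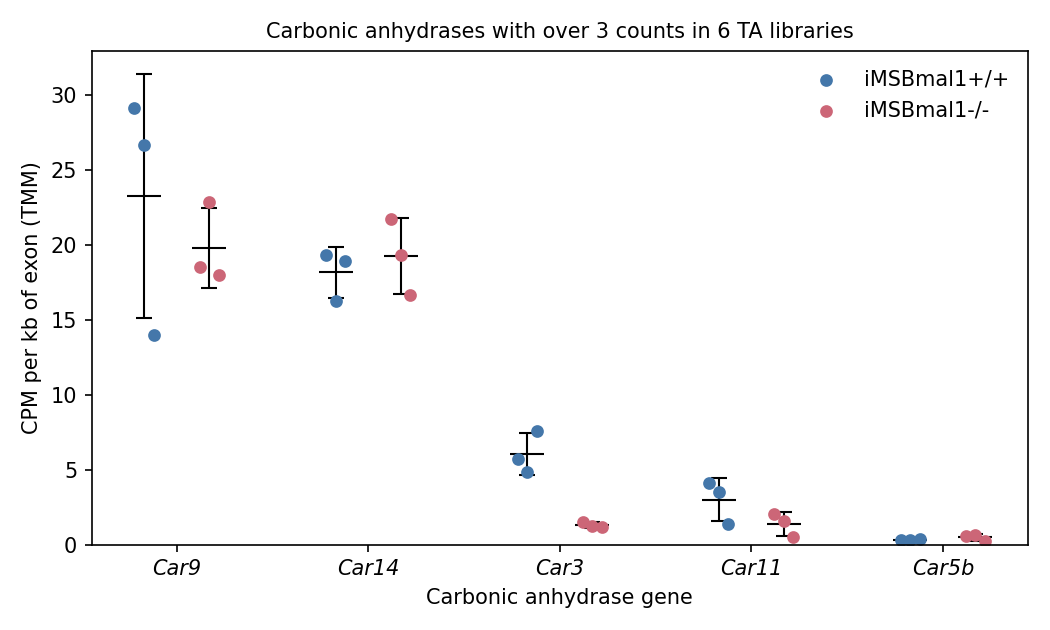
Levels of the 5 carbonic anhydrase genes with over 3 counts in all, in CPM per kb of exon sequence after TMM normalization (vertical axis), with 1 point per library, horizontal lines for the mean and bars for the SD of 3 libraries. *Car3* is the gene whose points do not overlap between the genotypes, at a mean of 6.05 in iMS*Bmal1*+/+ and 1.31 in iMS*Bmal1*-/- muscle.

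Levels of different genes were set side by side in CPM per kb of exon sequence. In iMS*Bmal1*+/+ muscle the order was *Car9* with a level of 23.3 ± 8.12 CPM per kb (SD, n = 3), *Car14* with 18.2 ± 1.70, *Car3* with 6.05 ± 1.37, *Car11* with 3.00 ± 1.44 and *Car5b* with 0.332 ± 0.0235. The libraries of *Car9* (14.0 to 29.1) and *Car14* (16.2 to 19.4) overlapped, whereas the lowest *Car3* library, at 4.87, was above the highest *Car11* library, at 4.13. In iMS*Bmal1*-/- muscle, *Car9* and *Car14* stood at 19.8 ± 2.68 and 19.2 ± 2.52 CPM per kb (SD, n = 3), *Car11* at 1.36 ± 0.787, *Car3* at 1.31 ± 0.184 and *Car5b* at 0.478 ± 0.226. There the levels of *Car3* (1.17 to 1.52) lay within those of *Car11* (0.495 to 2.03), so that these neighbors in the order did not differ beyond their spread. *Car3* held 11.5, 11.1 and 20.1% of the family's counts in iMS*Bmal1*+/+ against 3.92, 3.16 and 3.68% in iMS*Bmal1*-/- libraries.

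The cluster on chromosome 3 holds *Car13*, *Car1*, *Car3* and *Car2*, in this order, between 14641727 and 14900770. *Car13*, *Car3* and *Car2* are on the plus strand and *Car1* is on the minus strand. *Car2* starts 13749 bp after the end of *Car3*, and *Car1*, whose start faces *Car3*, is 55143 bp before it. With 100 kb on either side the interval holds 13 annotated genes, of which 6 had at least 1 count and 2, *Car3* and *E2f5*, were tested. *E2f5*, a transcription factor gene of the E2F family that ends 35417 bp before *Car13*, had 56, 46 and 67 counts in iMS*Bmal1*+/+ against 54, 78 and 60 in iMS*Bmal1*-/- libraries. Its groups overlapped, and the log2 fold change was 0.34 (SE 0.24, edgeR adjusted p = 0.644), a value that became 0.02 when iMS*Bmal1*-/- replicate 2 was left out and 0.53 when replicate 1 was. Outside the family, counts were also found on *1810022K09Rik* with 1 to 7 per library and *Gm16399*, a pseudogene within *Car1*, with 0 or 1. *Car3* held 39.7% of all counts in the interval in iMS*Bmal1*+/+ and 10.04% in iMS*Bmal1*-/- muscle.

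**Figure D2:**
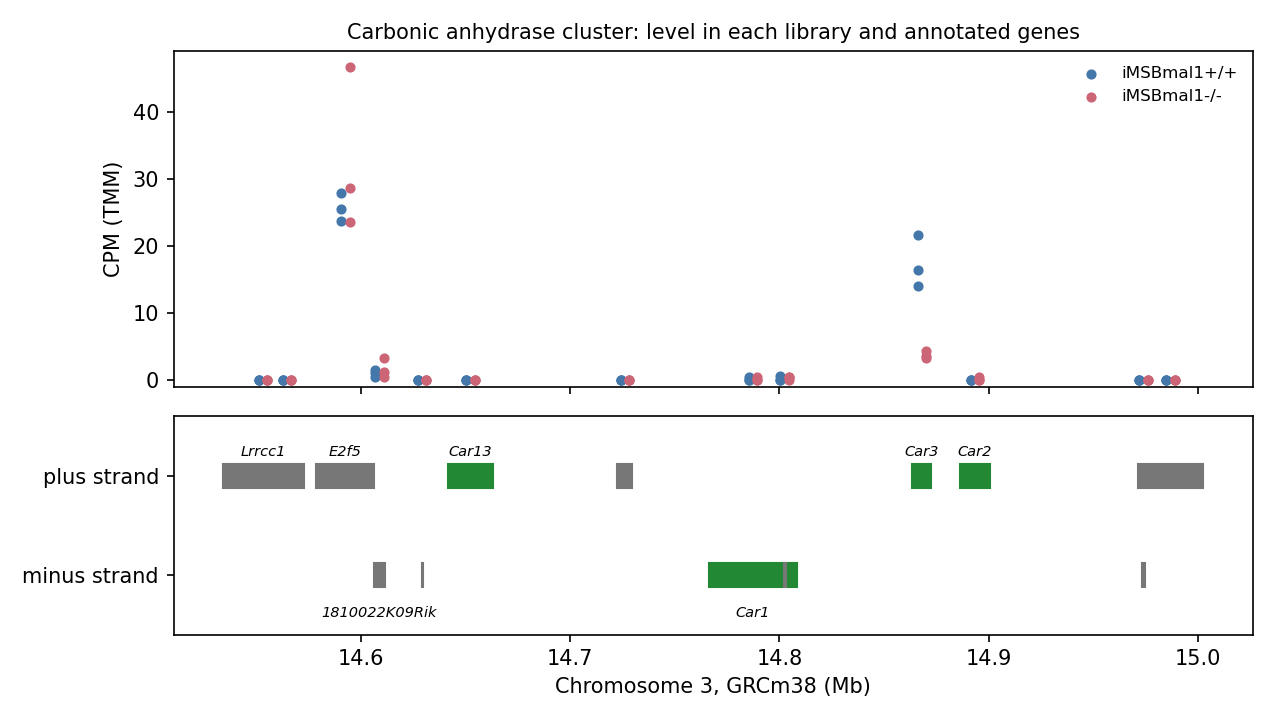
The carbonic anhydrase cluster with 100 kb on either side, along chromosome 3 of GRCm38 in Mb (horizontal axis), with the CPM of each gene in each library above and the annotated genes on the plus and minus strands beneath, carbonic anhydrases in green and other genes in gray. *Car3* and *E2f5* are the genes with levels above the counting floor of 3 counts in all 6 libraries, and the *Car3* points of the genotypes are apart while those of *E2f5* overlap.

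The strand was checked for each gene because the libraries were made with a kit that keeps strand, while the strand setting of the counting was not given in the sources used here. A facing gene is one on the opposite strand over the same bases. As an example from an abundant muscle gene, the creatine kinase gene *Ckm* had 9583 counts over the 6 libraries, 0.877% of the 1092649 counts on *A930016O22Rik*, which faces it. The fast calcium pump gene *Atp2a1* likewise had 1.10% of the counts on *Rabep2*, and the fast troponin C gene *Tnnc2* had 0.238% of those on *Ube2c*. On the mitochondrial chromosome, *mt-Co1* on the plus strand had 0.926% of the counts on *mt-Nd6* on the minus strand. Whether the counts given here, those of *Car3* and the marker genes included, came from the strand of the gene or from the opposite strand was not tested, so that levels and ranks may not be those of the sense transcript.

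*Car3*, *Car1*, *Car2*, *Car13* and *Car4* have no facing gene in the annotation, so that no count of an opposite strand can be set beside theirs. *Car8* has a facing microRNA gene, *Gm25355*, in an intron and without exon overlap, with 11, 9 and 1 counts in iMS*Bmal1*+/+ against 11, 5 and 9 in iMS*Bmal1*-/- libraries. *Car14* shares 445 bp of exon sequence with *Aph1a*, which encodes a subunit of gamma-secretase and lies on the plus strand from 95893969 to 95898288. *Aph1a* had 92, 101 and 155 counts in iMS*Bmal1*+/+ against 126, 104 and 110 in iMS*Bmal1*-/- libraries, which overlapped. Its log2 fold change was 0.10 (SE 0.16, edgeR adjusted p = 0.872), between 0.01 and 0.20 with single libraries left out. Counts of *Car14* per count of *Aph1a* were between 0.788 and 1.08 in the 6 libraries, unlike the ratio of *Ckm* to its facing gene. *Car9* shares 214 bp of exon sequence with *Gm12454*, an antisense gene with 7, 1 and 4 counts in iMS*Bmal1*+/+ against 7, 4 and 1 in iMS*Bmal1*-/- libraries. *Car9* had the larger count of this pair in every library, in both genotypes. *Car5a*, with 0 counts, shares 314 bp of exon sequence with *BC048644*, which had 1 count, in iMS*Bmal1*+/+ replicate 1.

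Among the tested genes, the profile over the 6 libraries was compared with that of *Car3* by Euclidean distance of log2 CPM, each gene centered on its own mean. The nearest was *Sphk2* at a distance of 0.336, where the median over tested genes was 2.51. *Sphk2*, which encodes sphingosine kinase 2, had 363, 343 and 564 counts in iMS*Bmal1*+/+ against 139, 84 and 113 in iMS*Bmal1*-/- libraries. As for *Car3*, every iMS*Bmal1*-/- library was below every iMS*Bmal1*+/+ library. The next were *Gm29724* (0.663), *Gm45819* (0.675), *Gm16268* (0.737) and *Gm27342* (0.768), for which *Gm29724* had 63, 71 and 126 counts in iMS*Bmal1*+/+ against 17, 14 and 23 in iMS*Bmal1*-/- libraries. A small distance to *Car3* requires a decrease of like size, so that the direction of these 5 genes follows from the choice.

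None of these 5 genes is on chromosome 3, and each has a facing gene in the annotation, unlike *Car3*. The facing genes were looked up after the values had been seen. Exons of *Sphk2* overlap those of *Dbp*, a clock output transcription factor gene, by 539 bp, and *Dbp* had 41, 36 and 52 counts against 42, 19 and 24 in iMS*Bmal1*-/- libraries. In CPM the *Dbp* libraries did not overlap, at 20.4, 18.6 and 19.7 against 18.3, 11.4 and 11.4 (log2 fold change -0.50, SE 0.26, edgeR adjusted p = 0.472). *Gm29724* overlaps *Adamts8*, a metalloprotease gene below the filter, which had 17, 16 and 10 counts against 3, 6 and 1, with no overlap. *Gm29724* also faces *Zbtb44*, without exon overlap, with 4, 4 and 6 counts against 6, 3 and 7, and *Gm45819* faces *1600010M07Rik*, with 0 counts in iMS*Bmal1*+/+ against 0, 0 and 2 in iMS*Bmal1*-/- libraries. *Sphk2* also overlaps *Rpl18*, and *Gm16268* overlaps *Stab2*, and the counts of both facing genes overlapped between the genotypes. *Gm27342* lies in an intron of *Mylk4*, a myosin light chain kinase gene with 40, 56 and 65 counts in iMS*Bmal1*+/+ against 22, 15 and 28 in iMS*Bmal1*-/- libraries. *Mylk4* fell by 1.19 on the log2 scale (SE 0.26, edgeR adjusted p = 0.0207), with every iMS*Bmal1*-/- library below every iMS*Bmal1*+/+ library. However, the adjusted p was between 0.0556 and 0.109 when iMS*Bmal1*+/+ replicate 2 or 3 or iMS*Bmal1*-/- replicate 1 or 2 was left out. Of these facing genes *Dbp*, *Adamts8* and *Mylk4* did not overlap between the genotypes in CPM, a pattern seen in 17.3% of all tested genes. That share does not cover *Adamts8*, which was not tested. *Gm45819* ends 305 bp before *Wee1*, a cell cycle kinase gene on the same strand. *Wee1* had 35, 56 and 62 counts in iMS*Bmal1*+/+ against 9, 10 and 8 in iMS*Bmal1*-/- libraries. A link between these neighbors was not tested.

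Bicarbonate and protons, the products of carbonic anhydrases, are carried across the muscle fiber membrane by anion exchangers, sodium-coupled transporters and lactate carriers. A list of 20 genes was made for this transport, and it also holds *Aqp1*, *Rhag*, *Rhbg* and *Rhcg*, which are outside these classes. Of the 20 genes, 4 were tested, 1 was higher at an adjusted p under 0.05 (0.761% of all tested genes were higher) and 0 were lower (1.07% of all). Unadjusted, 2 of the 4, *Bsg* and *Aqp1*, had a p under 0.05, as had 814 of all 6831 tested genes. *Aqp1* had a log2 fold change of 0.90 (SE 0.40, edgeR adjusted p = 0.373). Their median log2 fold change was 0.46, with a median of -0.0009 over all tested genes, and it lay between 2 values near 0 and 2 near 1. *Bsg*, the chaperone of the lactate carriers and a gene of many cell types, had 20, 25 and 27 counts in iMS*Bmal1*+/+ against 47, 34 and 54 in iMS*Bmal1*-/- libraries. All iMS*Bmal1*-/- libraries were above the others (log2 fold change 1.01, SE 0.25, edgeR adjusted p = 0.0465). It passed the threshold in 4 of 13 alternatives, with adjusted p from 0.0312 to 0.197 over edgeR, DESeq2 and limma, and in 0 of the 6 fits with 1 library left out. The other 3 tested genes had log2 fold changes from 0.01 to 0.90, and the listed genes that were not tested include 4 with 0 counts.

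Since *Car3* is known as a gene of slow fibers and adipocytes, genes typical of both were read from the same libraries. Of 11 slow fiber genes 1 was tested, and 0 passed the threshold or had an unadjusted p under 0.05 in edgeR, with 0 called by DESeq2. The tested gene and the most abundant per kb, *Atp2a2*, the calcium pump of slow fibers, had 60, 76 and 103 counts in iMS*Bmal1*+/+ against 69, 72 and 77 in iMS*Bmal1*-/- libraries, with overlap. Its log2 fold change of 0.01 had either sign under other settings. The summed level of the list was 34.8, 46.5 and 45.2 CPM in iMS*Bmal1*+/+ against 44.4, 52.1 and 48.2 CPM in iMS*Bmal1*-/- libraries. Of the defining markers, *Myh7*, the slow myosin, had at most 1 count per library, *Myl2* had at most 2 and *Tnni1* had 0. Exons of 4 listed genes overlap those of a facing gene, and 3 of the 4 were counted less than it. *Mhrt*, which faces *Myh7*, had 23, 10 and 7 counts against 29, 15 and 15. *Gm43361*, which faces *Atp2a2*, had 154, 149 and 121 against 166, 104 and 165. Other listed genes below the filter, named after their counts had been seen, had few counts in any library, and most had more of them in iMS*Bmal1*-/- muscle. *Tnnt1*, the slow troponin T, had 5, 2 and 1 counts against 1, 0 and 2, *Myl3* had 2, 6 and 5 against 10, 5 and 9, and *Myoz2* had 0, 0 and 0 against 5, 1 and 1. *Csrp3* and *Casq2* had 0 to 2 counts in iMS*Bmal1*+/+ and 1 to 4 in iMS*Bmal1*-/- libraries, without overlap in CPM, as for *Myoz2*. The 17.3% of genes without overlap was counted over tested genes, which these are not. For *Csrp3*, replicate 2 of each genotype had 1 count, so that these libraries were apart through library size only. *Tnnc1* had 2, 3 and 7 counts against 11, 3 and 2, and *Tpm3* had 0, 1 and 0 against 0, 0 and 4. Nothing is read from these counts, whether near the floor of 3 or above it, or from their directions, which differed between genes. The part of slow fibers in the difference of *Car3* was not tested.

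The TA is known as a fast muscle, and of 12 fast fiber genes all were tested, with a summed level of 7536 to 9626 CPM in iMS*Bmal1*+/+ and 10248 to 12176 CPM in iMS*Bmal1*-/- libraries. Of these genes, 2 were higher in iMS*Bmal1*-/- muscle (0.761% of all tested genes were) and 0 lower, and 11 of the 12 had an unadjusted p under 0.05, as had 814 of all 6831 tested genes. The number past the threshold was 4 with DESeq2 and 5 without the filter on low counts. The median log2 fold change was 0.46, beside -0.0009 over all tested genes. *Mylpf*, the fast regulatory light chain, had 179, 237 and 286 counts against 375, 315 and 471 (log2 fold change 0.85, SE 0.14, edgeR adjusted p = 0.00241). *Pvalb*, the calcium buffer parvalbumin, had 57, 82 and 92 counts against 143, 113 and 141 (log2 fold change 0.90, SE 0.17, edgeR adjusted p = 0.00700). Both genes had every iMS*Bmal1*-/- library above every iMS*Bmal1*+/+ library, opposite to *Car3*. In CPM the same held for every other gene of the list except *Myh1* and *Atp2a1*. Of all tested genes, 17.3% had no overlap, in either direction. *Tnnt3*, the fast troponin T and the most abundant per kb, had a log2 fold change of 0.37 (SE 0.11, edgeR adjusted p = 0.0939) and passed the threshold in 2 of 13 alternatives, DESeq2 (adjusted p = 0.0372) among them, with a range of 0.0372 to 0.346. All 5 listed genes that are faced by another gene were counted less than it, and 1 of these facing genes, *Myhas* beside the fast myosins, had a log2 fold change of -0.60 (SE 0.15, edgeR adjusted p = 0.0447). That call was lost in 8 of 13 alternatives, including those that left out iMS*Bmal1*+/+ replicate 1 or 2 or any single iMS*Bmal1*-/- library. The part of fiber type in the difference of *Car3* was not tested.

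Of 11 adipocyte genes 3 were tested, and 0 passed the threshold or had an unadjusted p under 0.05 in edgeR, with 0 called by DESeq2. Their summed level was 38.3, 28.9 and 47.4 CPM in iMS*Bmal1*+/+ against 37.0, 41.3 and 28.6 CPM in iMS*Bmal1*-/- libraries. The groups overlapped, in contrast to *Car3*, while iMS*Bmal1*+/+ replicate 3 was the highest library for both. The most abundant per kb, *Lipe*, the hormone-sensitive lipase that muscle also makes, had 50, 28 and 67 counts against 46, 36 and 28. It shares 918 bp of exon sequence with a facing gene, *4732471J01Rik*. That gene had more counts in every library, with 239, 197 and 296 against 235, 177 and 167. *Lep* had 0 counts, and *Adipoq*, *Cidec* and *Pck1* with 1 count each and *Plin1* and *Retn* with 2 each were counted only in iMS*Bmal1*+/+ replicate 3. *Fabp4* had 13, 20 and 21 counts against 22, 17 and 21, and *Scd1* had 1, 0 and 6 against 2, 5 and 0, and both overlapped. The part of adipocytes in the difference of *Car3* was not tested.

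*Car1* and *Car2* are known from red blood cells and *Car4* from capillary endothelium, and markers of both were counted as well. Of 9 erythroid genes 1 was tested, *Alas2*, the most abundant, with 302, 320 and 477 counts against 483, 285 and 343, and the list summed to 156, 168 and 186 CPM in iMS*Bmal1*+/+ against 217, 175 and 166 CPM in iMS*Bmal1*-/- libraries. Nearly all of this sum was *Alas2*, with a mean of 165.5 of 170.0 CPM in iMS*Bmal1*+/+ and 181.5 of 186.0 CPM in iMS*Bmal1*-/- muscle, and the globin gene *Hbb-bs* had 2 or 3 counts per library. Of 10 endothelial genes 4 were tested, and the list summed to 77.1, 76.4 and 83.1 CPM in iMS*Bmal1*+/+ against 75.3, 88.7 and 62.0 CPM in iMS*Bmal1*-/- libraries, with *Tek* the most abundant and none of the 10 at 0. In both lists the genotypes overlapped, and 0 genes passed the threshold or had an unadjusted p under 0.05 in edgeR, with 0 called by DESeq2.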

How the data were processed

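Total RNA of 6 TA muscles was depleted of ribosomal RNA and sequenced as read pairs. Alignment to mm10 by the authors used HISAT2 and counting used HTSeq, and raw counts per gene were deposited. The second deposited table holds a normalized signal, in which each library's counts are scaled by its DESeq2 size factor. Versions and the strand setting are not given in the sources used here. Of the identifiers, 52489 were matched to GENCODE mouse release M21 and 147 were not.

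Low counts were filtered out with filterByExpr by genotype, and the 6831 genes left were TMM-normalized and compared in edgeR 4.0.16 under R 4.3.3. Unless another fit is named beside it, an adjusted p is from its two-sided quasi-likelihood test, Benjamini-Hochberg adjusted over these genes, with a threshold of 0.05. A facing gene overlaps a gene on the opposite strand. The named genes were the family, the genes facing it or within 100 kb of the cluster with at least 1 count, the most abundant and the changed genes (at most 4) of each list, and the 5 tested genes nearest to *Car3* (prior count 2). Further list genes and the genes beside those nearest to *Car3* were named after their values had been seen. The members and lists were chosen with earlier results of these data known. Alternatives were DESeq2 1.42.0, no filter, at least 10 counts in every library, upper-quartile scaling, limma 3.58.1 on log2 of the normalized signal plus 1 or 8, the replicate block, and leaving out each library. Each library was 1 mouse, and the libraries of a genotype differed by more than sampling noise. Some values of the erythroid list are not reported here.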

Additional observations from a re-analysis of the deposited data

How the results depend on the processing

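*Car3* was lower in iMS*Bmal1*-/- muscle in all fits that gave a value, at -2.22 without the filter, -2.18 with upper-quartile scaling, -2.08 and -1.48 with limma and pseudocounts of 1 and 8, and -2.33 to -1.99 with 1 library left out. DESeq2 gave -2.23, and with at least 10 counts in every library *Car3* was not fitted. Family genes outside the 7 numbered 0 past the threshold in every alternative. The 125 genes past the threshold became 219 without the filter and 60 to 109 with 1 library left out, where iMS*Bmal1*-/- replicates 2 (60) and 1 (66) moved the number most. The bicarbonate and acid transport list went from 1 gene to 0 with DESeq2 and with both limma settings, and to 0 without any single library. Fast fiber genes went from 2 to 4 with DESeq2 and to 5 without the filter. The log2 fold change of *Atp2a2* was -0.018 with DESeq2, -0.0273 without the filter, -0.0102 and -0.00923 with limma (pseudocounts 1 and 8), and -0.116 to 0.130 with 1 library left out, and that of *Car14* was -0.030 to 0.176 with 1 library left out. Of 260 values of the 20 single genes other than *Car3* under alternatives, 229 kept direction and side of the threshold, 21 lost the call, 2 gained it and 8 changed sign, the last for *Car14* and *Atp2a2*. What caused these changes between settings was not tested.

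Libraries with the same replicate number had correlations of -0.037, -0.017 and -0.029 between their deviations from the genotype means. With 3 libraries per genotype these values cannot settle whether the replicate numbers pair libraries. With the replicate block the count of genes was 220, of fast fiber genes 8, the adjusted p of *Tnnt3* was 0.0382, and the *Car3* value was -2.18.

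For 11 of the 16 family genes, 3 counts or fewer in all libraries were too few to read a difference.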
